A study of Mus musculus with 4 samples.

Results

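Cthrc1-positive activated fibroblasts of the ascending aorta were described in male mice of the strain Mef2c-mTmG that had been infused for 3 days with angiotensin II (AngII), the pressor peptide of the renin system. The cells were selected on measured UMI counts, where a UMI (unique molecular identifier) stands for 1 captured transcript. A barcode needed 500 or more genes with a UMI, no more than 10% of its UMIs from mitochondrial genes, 1 or more UMIs of Pdgfra, 5 or more of Dcn, at most 2 of Myh11, 0 of Ptprc, 0 of Pecam1 and 2 or more of Cthrc1. In all, 1572 cells passed, 1236 in the SHF AngII library and 336 in the CNC AngII library, of 3167 fibroblasts that met every other condition in those libraries and of 28540 kept barcodes in the 3 libraries used. Their comparison group was the fibroblasts of the same library with 0 Cthrc1 UMIs (902 in SHF AngII and 339 in CNC AngII), called Cthrc1-zero fibroblasts here. The same gate was set on the SHF baseline library, from mice without AngII, where 168 cells passed and 2872 fibroblasts had 0 Cthrc1 UMIs.

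Cthrc1 (collagen triple helix repeat containing 1) is a secreted glycoprotein that is best known from injured arteries and from fibroblasts that lay down matrix in scarring lung and heart. Pdgfra, a receptor tyrosine kinase, marks fibroblasts in general, and Postn (periostin) is a matricellular protein made by fibroblasts activated by injury or TGF-beta. In the aortic wall fibroblasts sit mainly in the adventitia, where they make collagen, proteoglycans and microfibrils, and an activated fibroblast is usually recognised by more fibrillar collagen, crosslinking enzymes, fibronectin and periostin, with or without smooth muscle actin (Acta2).

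The study asked how cells from the second heart field (SHF) and cells of other origins in the ascending aorta respond to AngII. Live singlets were sorted by lineage tracking before 10x Chromium 3' v3 capture, with the reporter strain as the only allele the labels name, in all groups. CNC is not spelled out in the labels, and a baseline sample labelled CNC was not analysed here. Each group was 1 library, and the number of mice per library and their age are not given in the sources used here, so differences have no replicate check and are given without tests or p-values. Every interval is at 95% and covers counting error only.

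Kept barcodes numbered 9490 in SHF AngII, 10471 in CNC AngII and 8579 in SHF baseline, with median depths of 13459, 12774 and 10396 UMIs. Scrublet marked 0, 5 and 3 of the Cthrc1-positive cells of these libraries as doublets. Between 29 and 34 barcode sequences were shared by any pair of libraries, and 1 barcode was past the Cthrc1 gate in both SHF libraries. The gate asks for UMIs, so it takes deep cells: median depth was 20583 UMIs in Cthrc1-positive and 10694.5 in Cthrc1-zero fibroblasts of SHF AngII, 15988 and 8732 in CNC AngII, and 12918.5 and 8714 in SHF baseline. Ratios of the lists, the named genes and a few further genes were therefore also computed with Cthrc1-zero cells weighted to the depths of the Cthrc1-positive cells. These depth-weighted values are given beside a ratio printed here that they move by more than 1.5 times, and for genes without one they were not computed or moved it by less. That weighting rests on few deep cells, since the deepest of 10 depth bins held 7 Cthrc1-zero cells of SHF AngII and 4 of CNC AngII.

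The label was checked against marker genes. Postn had a UMI in 70.1% of the Cthrc1-positive cells of SHF AngII and 75.9% of those of CNC AngII, beside 28.0% and 47.2% of Cthrc1-zero fibroblasts. With every cell thinned to 5000 UMIs the shares were 50.6% and 58.0% beside 16.9% and 34.7%. Pdgfra, a gate gene, was at 129 against 194 CPM in SHF AngII and 146 against 199.97 in CNC AngII, and so was lower per UMI in the Cthrc1-positive cells. CPM here means UMIs of a gene summed over the cells of a gate, scaled to a total of 1000000 UMIs over those cells. Dcn, another gate gene, was lower too, at 5128 against 7037 CPM in SHF AngII and 3276 against 6950 in CNC AngII. The 6 fibroblast markers (Pdgfra, Dcn, Lum, Col1a1, Gsn, Dpt) summed to 13142 against 15240 CPM in SHF AngII. In CNC AngII they summed to 9952 against 15379 CPM. In cells gated as smooth muscle, Cthrc1, Postn and Pdgfra summed to 2259 CPM in SHF AngII and 2391 in CNC AngII. Pdgfra was at 0 there and 1.51% and 0.330% of the cells had 2 or more Cthrc1 UMIs, so these sums were mostly Postn. Postn was at 530.4 and 521 CPM in Cthrc1-positive fibroblasts, so a high level does not set them apart from smooth muscle. How much of the Postn in fibroblasts came from smooth muscle RNA was not measured. The 6 smooth muscle markers (Myh11, Cnn1, Lmod1, Smtn, Acta2, Tagln) summed to 3722 CPM in Cthrc1-positive and 5143 in Cthrc1-zero fibroblasts of SHF AngII and to 4241 and 3961 in CNC AngII, where cells gated as smooth muscle had 64759 and 58622. In both kinds of fibroblast nearly all of these sums was Acta2 and Tagln. The 7 macrophage markers summed to 17.6 and 13.4 CPM in SHF AngII and to 249.5 and 277 in CNC AngII, with Ptprc at 0 by the gate, and smooth muscle cells of CNC AngII had 158. Endothelial, Schwann, lymphocyte and red blood cell lists each summed to under 5 CPM in both gates of both AngII libraries. Mesothelial markers (6 genes, among them Msln and Upk3b) were at 4.16 against 61.1 CPM in SHF AngII and 1.34 against 42.1 in CNC AngII, and cardiomyocyte markers at 32.3 against 157 and 11.2 against 36.1. The cardiomyocyte sum was nearly all Tnnt2 (32.2 against 154 CPM and 11.1 against 31.4), with Myh6 and Nppa at 0, and smooth muscle cells had 456 and 51.9 CPM of the same list. So the Cthrc1-zero group held more transcripts of mesothelial markers and of Tnnt2, and their part in the ratios below was not tested. Pericyte markers were at 171 against 251 CPM in SHF AngII and 179 against 239 in CNC AngII, and 5 cartilage markers at 111 against 142 and 305 against 229.

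Cthrc1-positive cells made up 51.5% of the gated fibroblasts of SHF AngII (exact Clopper-Pearson interval 49.5 to 53.6%, 1236 of 2398), 43.7% of those of CNC AngII (40.2 to 47.3%, 336 of 769) and 5.15% of those of SHF baseline (4.42 to 5.97%, 168 of 3262). With every cell thinned to 5000 UMIs, which left out 119, 64 and 670 shallower fibroblasts, the shares were 36.9% (34.9 to 38.9%), 34.3% (30.8 to 38.0%) and 3.24% (2.59 to 3.997%). The intervals of SHF AngII and CNC AngII overlapped after thinning and not before, and both AngII shares were above the baseline interval in either form. The baseline file also uses another gene annotation and is another capture, so infusion and library cannot be told apart. The number of Cthrc1 UMIs per positive cell had a median of 11 (up to 256) in SHF AngII, 9 (up to 114) in CNC AngII and 3 (up to 41) in SHF baseline, and Cthrc1 stood at 1015, 890.1 and 364 CPM. Just outside the threshold lay 260, 94 and 222 fibroblasts with 1 Cthrc1 UMI, and just inside it 126, 48 and 57 cells with 2. In SHF AngII the cells with 1 UMI had 73.8 CPM of Postn and 1027 of Apoe, and the cells with 2 UMIs 93.2 and 648.

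Cthrc1 UMIs were also counted in other cell types as a guide to free RNA. Whether those cells make Cthrc1 themselves was not tested. Among smooth muscle cells, 1.51% in SHF AngII, 0.330% in CNC AngII and 0.0508% in SHF baseline had 2 or more Cthrc1 UMIs, at median depths of 13792.5, 13636 and 12633 UMIs against 15510, 12398 and 9169 in gated fibroblasts. Of 1559 macrophages of CNC AngII, at a median of 12240 UMIs, 26 had 1 or more Cthrc1 UMIs and 0 had 2, which allows a share of up to 0.192% for the latter by a floor of 3 counts (exact Clopper-Pearson upper limit 0.236%). Few endothelial cells were present, and 14.3% of them (3 of 21, exact interval 3.05 to 36.3%) in SHF AngII, 13.3% (4 of 30, 3.76 to 30.7%) in CNC AngII and 5.71% (2 of 35, 0.6997 to 19.2%) in SHF baseline had 2 or more, at median depths of 8136, 5848 and 6972 UMIs. At full depth the fibroblast shares were above the smooth muscle share in each library and above the endothelial intervals in both AngII libraries. Thinned to 5000 UMIs, 2 of 16 endothelial cells of SHF AngII had 2 or more (12.5%, 1.55 to 38.3%). That interval holds the thinned fibroblast share of 36.9%. In CNC AngII 1 of 21 did (4.76%, 0.120 to 23.8%), and the thinned fibroblast share of 34.3% was above that interval. At baseline the fibroblast share of 5.15% was not above the endothelial value, which came from 2 of 35 cells. Cthrc1 was there at 51.8 CPM in endothelial cells, 0.875 in smooth muscle cells and 34.8 in gated fibroblasts. Whether the endothelial value reflects free RNA was not tested.

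**Figure D1:**
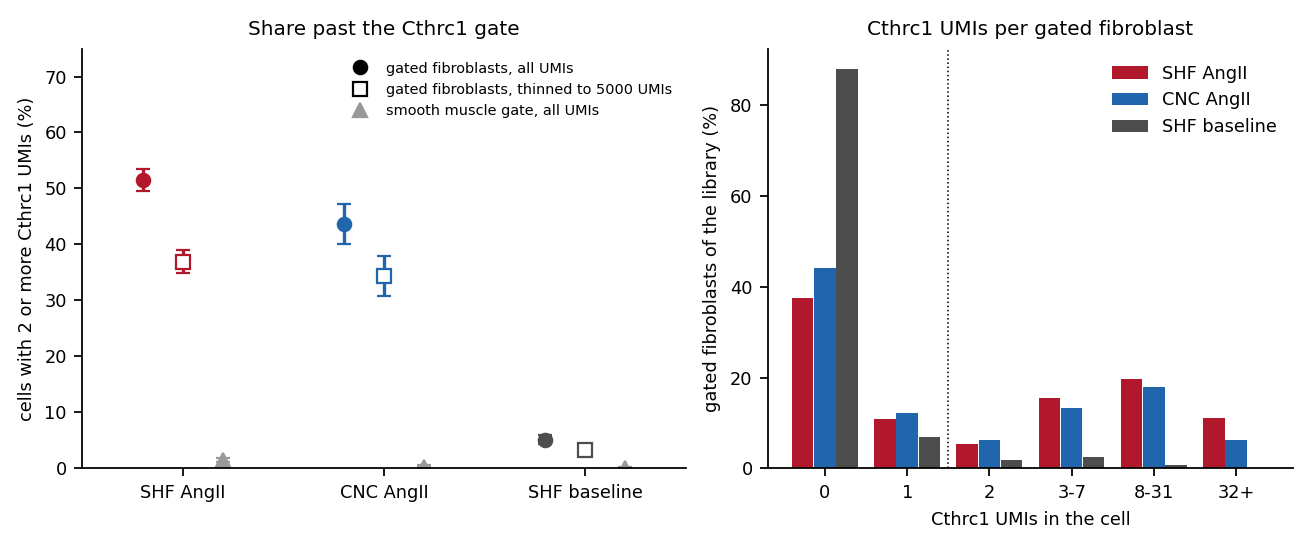
Left, percent of gated fibroblasts with 2 or more Cthrc1 UMIs in each library, at full depth (filled) and thinned to 5000 UMIs (open), with exact 95% intervals, and the smooth muscle share as grey triangles; right, percent of gated fibroblasts by Cthrc1 UMIs in the cell. Both AngII libraries stand at 43.7% or more at full depth and SHF baseline at 5.15%.

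Most genes had like levels in Cthrc1-positive and Cthrc1-zero fibroblasts of the same library. The ratio used is log2((CPM + 1)/(CPM + 1)), Cthrc1-positive over Cthrc1-zero, and a gene with a mean of at least 50 CPM counted as higher or lower at 2-fold or more. In SHF AngII 22 of 2564 genes were higher (percent called 0.858) and 35 were lower (1.37). In CNC AngII 20 of 2571 were higher (0.778) and 42 lower (1.63). Gate genes, Cthrc1 among them, were left out of these counts. The rule splits these same cells on Cthrc1, so the counts describe the split and nothing is read from their size. Of 2466 genes at the minimum in both AngII libraries, gate genes left out, 15 were higher in both, which is 71.4% of the 21 higher in SHF AngII and 75% of the 20 in CNC AngII. Likewise 22 were lower in both, 66.7% of 33 and 61.1% of 36. None of the 2466 was higher in SHF AngII and lower in CNC AngII at 2-fold, or the reverse (0 genes), and 1955 had the same sign. The ratios of the libraries, which share no cells, had a Pearson correlation of 0.835 across genes, and genes are not independent replicates.

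**Figure D2:**
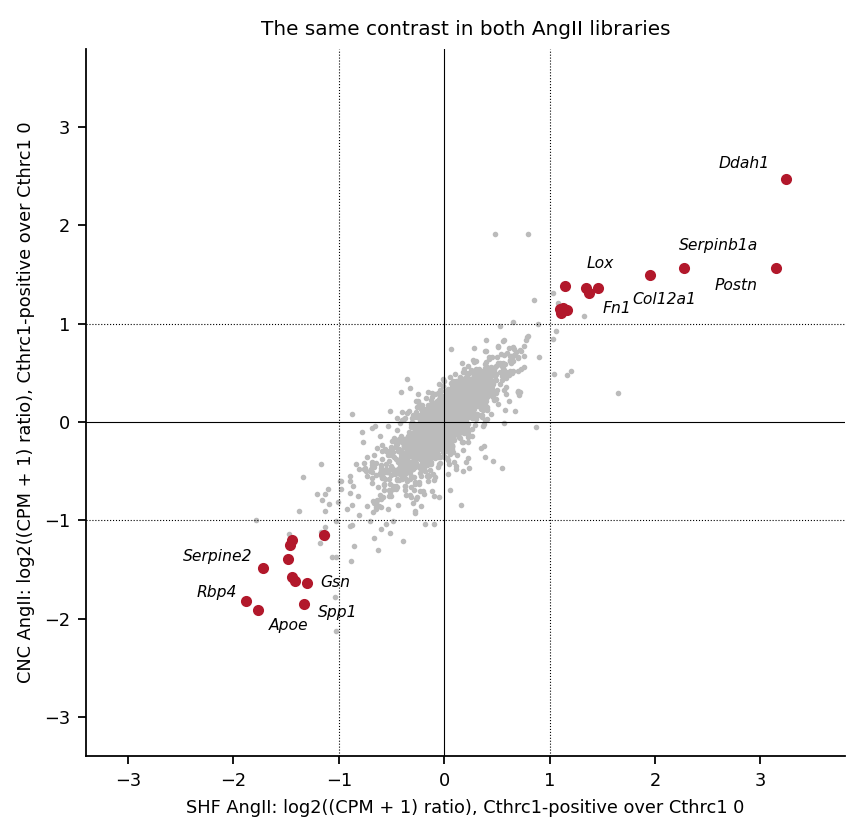
Each point is 1 of 2466 genes, with its log2 ratio of Cthrc1-positive over Cthrc1-zero fibroblasts in SHF AngII on the horizontal axis and in CNC AngII on the vertical axis. Genes 2-fold higher in both libraries lie at the upper right, led by Ddah1 (3.24 and 2.48), and genes 2-fold lower in both at the lower left, led by Rbp4 and Apoe.

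Of the 12 named genes that were higher in Cthrc1-positive fibroblasts of both AngII libraries, 6 encode secreted matrix proteins or the enzyme that crosslinks them. Postn was at 530.4 against 58.9 CPM in SHF AngII (log2 ratio 3.15, counting interval 3.06 to 3.29) and at 521 against 175 in CNC AngII (1.57, 1.44 to 1.70). The Cthrc1-positive cells of the libraries had close Postn levels, whereas the Cthrc1-zero fibroblasts of CNC AngII had 175 CPM and those of SHF AngII 58.9. Ddah1, an enzyme that degrades asymmetric dimethylarginine, an inhibitor of nitric oxide synthase, was at 166 against 16.7 CPM in SHF AngII (3.24, 3.10 to 3.54) and 163 against 28.4 in CNC AngII (2.48, 2.21 to 2.83). Ddah1 is not a matrix gene, and it had the highest ratio of these 12 genes in each AngII library.

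Several further genes belong to the matrix itself. Fn1, which encodes fibronectin, was at 907 against 349 CPM in SHF AngII (log2 ratio 1.38) and 941 against 379 in CNC AngII (1.31), with a depth-weighted ratio of 0.53 in SHF AngII. Col12a1, a fibril-associated collagen, was at 212 against 54.1 and 200.4 against 70.2 CPM (1.95 and 1.4999). Fbln2, a glycoprotein of elastic fibres and basement membranes, was at 1132 against 519 and 1106 against 494 CPM (1.12 and 1.16). These 3 genes were each over 2-fold higher in both AngII libraries as summed. Fndc1, a fibronectin type III domain protein, was at 199 against 88.4 and 147 against 66.4 CPM (1.16 and 1.14). Lox, the amine oxidase that crosslinks collagen and elastin, was at 1502 against 590.1 and 1520.3 against 589 CPM (1.35 and 1.37), nearly the same levels in both libraries.

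The other named genes with higher levels act inside the cell. Serpinb1a, an inhibitor of neutrophil serine proteases, was at 158 against 31.95 CPM in SHF AngII (2.27) and 109.8 against 36.4 in CNC AngII (1.56, depth-weighted 0.95). Palld, an actin scaffold of stress fibres, was at 151 against 54.2 and 123 against 47.4 CPM (1.46 and 1.36). Fkbp11, a prolyl isomerase of the endoplasmic reticulum, was at 251 against 117 and 248 against 111 CPM (1.10 and 1.151). Palld and Fkbp11 had like ratios in both libraries, whereas that of Serpinb1a was larger in SHF AngII. Nt5dc2 was at 84.4 against 38.7 and 111 against 51.0 CPM (1.10 and 1.11), with a depth-weighted ratio of 0.45 in CNC AngII. Hist1h2ap, a replication-dependent histone whose reads may be shared with near-identical copies and is uncertain for that reason, was at 73.2 against 32.5 and 92.998 against 35.0 CPM (1.147 and 1.39). Its depth-weighted ratios were 0.27 in SHF AngII and 0.33 in CNC AngII.

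Genes that were lower in Cthrc1-positive fibroblasts include carriers and protease inhibitors. Rbp4, the plasma carrier of retinol, was at 345 against 1273 CPM in SHF AngII (log2 ratio -1.88, -1.92 to -1.85) and 292 against 1037 in CNC AngII (-1.82, -1.91 to -1.74). Apoe, a lipid carrier, was at 397 against 1357 CPM (-1.77, -1.81 to -1.74) and 379 against 1432 (-1.91, -1.99 to -1.84). Its depth-weighted ratios were -1.15 and -1.16. For both genes the Cthrc1-positive cells stood at under 400 CPM and the Cthrc1-zero fibroblasts at over 1000 in each AngII library. Hsd11b1, which regenerates active glucocorticoid from its inactive form, was at 92.8 against 254 and 38.2 against 116 CPM (-1.44 and -1.57). Fgl2, a member of the fibrinogen family, was at 237 against 655 and 152 against 363 CPM (-1.46 and -1.25).

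Gsn, an actin-severing protein that quiescent fibroblasts express at a high level, was at 1036 against 2553 CPM in SHF AngII (-1.30) and 1031 against 3205 in CNC AngII (-1.63). Its depth-weighted ratios were -0.38 and -0.65, much nearer to 0 than the ratios of the plain sums. Gstm1, a glutathione transferase, was at 80.4 against 217 and 74.4 against 229.6 CPM (-1.42 and -1.61), depth-weighted -0.62 and -0.67. Serpine2, an inhibitor of thrombin and plasminogen activators, was at 31.3 against 105 and 57.8 against 163 CPM (-1.72 and -1.48), and in CNC AngII its depth-weighted ratio was -0.97. Clu, an extracellular chaperone, was at 40.6 against 116 and 59.8 against 159 CPM (-1.49 and -1.40, the latter -0.84 when depth-weighted). In SHF baseline Gstm1, Serpine2 and Clu had ratios of 0.25, 0.32 and 0.44. The Serpine2 and Clu values there rested on few cells, with 31.1% and 28.7% of the UMIs of the Cthrc1-positive cells in 1 cell, and they were not stable in sign: Serpine2 lay between -0.37 and -0.0079 under 4 alternatives, and Clu at -0.061 with a stricter filter on cells. Col4a4, a basement membrane collagen chain, was at 29.6 against 82.3 and 33.8 against 78.8 CPM (-1.44 and -1.195). Wfdc1, a whey acidic protein family member, was at 43.4 against 97.1 and 40.6 against 91.2 CPM (-1.14 and -1.151), depth-weighted -0.58 in SHF AngII. Spp1, which encodes osteopontin, was at 189 against 477 and 253 against 915 CPM (-1.33 and -1.85, depth-weighted -2.82 and -2.50). Spp1 came from few cells: 21.9% of its UMIs in the Cthrc1-positive cells of SHF AngII lay in 1 cell and 85.0% in the 1% of cells with most, and in CNC AngII its ratio was -0.23 with cycling cells left out.

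**Figure D3:**
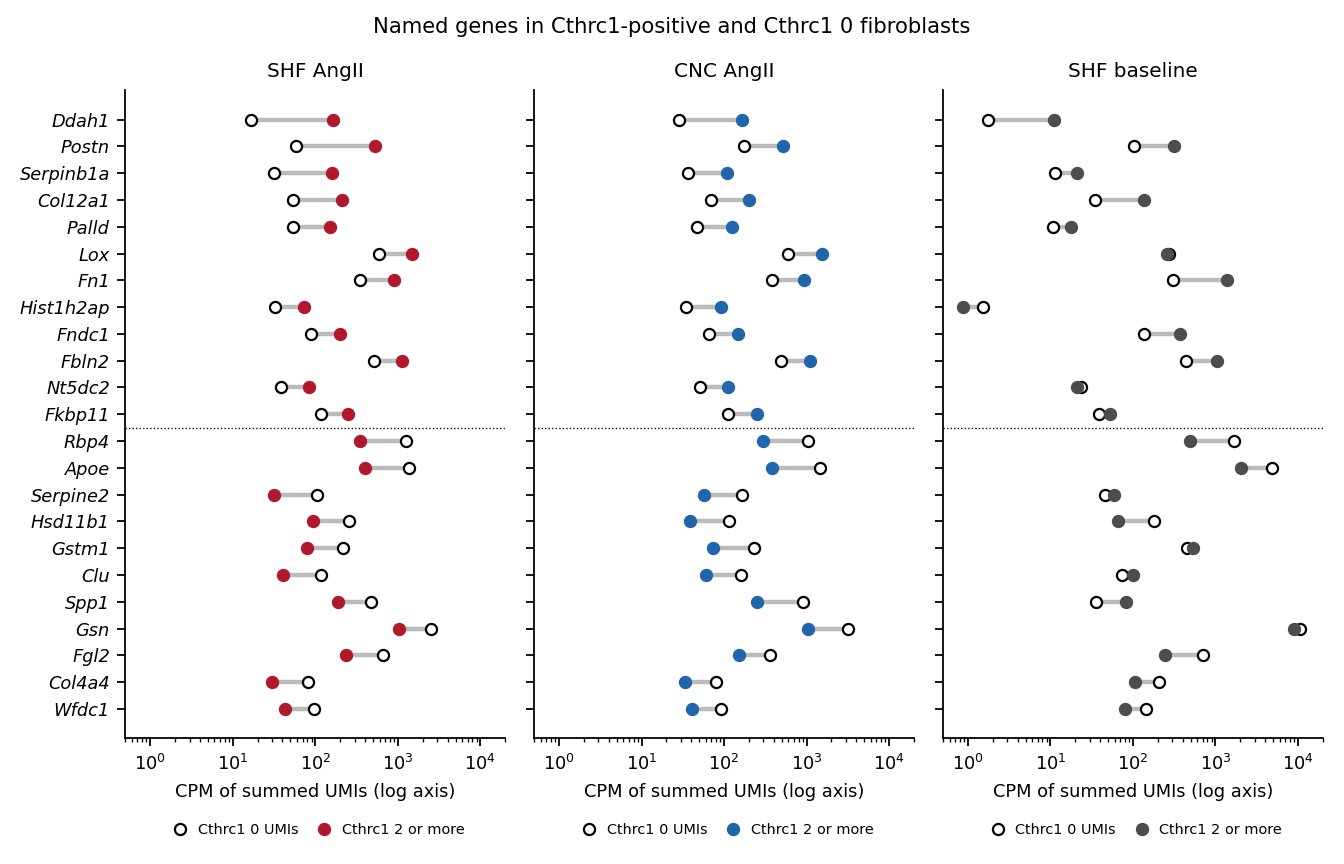
CPM of 23 named genes (log axis) in Cthrc1-positive (coloured) and Cthrc1-zero (open) fibroblasts of each library. The coloured points lie to the right of the open ones for the 12 higher genes and to the left for the 11 lower genes drawn in both AngII libraries, and in SHF baseline Lox, Hist1h2ap, Nt5dc2, Serpine2, Gstm1, Clu and Spp1 lie the other way.

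Promoter sequences are shown for the 2 genes that rank first in each direction among the named genes, whose rule asks for a mean of 50 CPM in both AngII libraries and ranks by the ratio nearer to 0. They are the 250 bases before the transcription start from RefSeq (GRCm38.p6, the build the files use under its name mm10), on the strand of the gene, 5′ to 3′, and a promoter was matched for 7 of the 12 higher and 9 of the 12 lower named genes. Capitals mark the searched motifs named after the sequences.
Ddah1: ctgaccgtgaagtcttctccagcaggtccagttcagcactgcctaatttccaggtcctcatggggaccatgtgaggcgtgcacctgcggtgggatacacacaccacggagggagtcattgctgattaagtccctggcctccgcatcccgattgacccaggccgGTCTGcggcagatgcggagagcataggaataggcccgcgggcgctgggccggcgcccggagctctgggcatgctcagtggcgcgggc
Postn: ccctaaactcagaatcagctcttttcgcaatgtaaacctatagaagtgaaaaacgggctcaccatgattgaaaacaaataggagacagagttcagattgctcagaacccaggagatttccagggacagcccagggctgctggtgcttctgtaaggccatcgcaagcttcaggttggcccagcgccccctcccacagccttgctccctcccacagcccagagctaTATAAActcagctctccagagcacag
Rbp4: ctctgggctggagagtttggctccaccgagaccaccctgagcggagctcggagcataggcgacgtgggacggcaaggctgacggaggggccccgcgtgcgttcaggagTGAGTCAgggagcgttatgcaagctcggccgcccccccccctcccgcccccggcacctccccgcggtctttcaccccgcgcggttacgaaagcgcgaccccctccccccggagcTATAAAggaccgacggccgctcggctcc
Apoe: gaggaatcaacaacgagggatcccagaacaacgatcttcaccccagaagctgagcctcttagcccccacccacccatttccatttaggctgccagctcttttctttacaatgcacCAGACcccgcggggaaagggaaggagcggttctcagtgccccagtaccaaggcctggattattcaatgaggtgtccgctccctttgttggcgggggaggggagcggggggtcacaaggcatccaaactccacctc

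The Ddah1 window is chr3:145758442-145758691 on the plus strand, with the SMAD motif CAGAC on the reverse strand at base -87 from the start. The Postn window is chr3:54360857-54361106 on the plus strand, with TATAAA at -26. The Rbp4 window is chr19:38124812-38125061 on the minus strand, with the AP-1 motif TGANTCA at -142 and TATAAA at -28. The Apoe window is chr7:19699189-19699438 on the minus strand, with CAGAC at -135. Motifs were searched on both strands in windows of the same length from 27025 promoters. TGANTCA occurred in 6.83% of all promoters, in 0 of the 7 higher and 2 of the 9 lower (Rbp4 and Fgl2). CAGAC occurred in 42.1% of all, in 1 of 7 (Ddah1) and 5 of 9 (Apoe, Fgl2, Gstm1, Serpine2 and Spp1). TATAAA occurred in 12.9% of all, in 2 of 7 (Postn and Fndc1) and 2 of 9 (Rbp4 and Spp1). The TEAD motif GGAATG was in 12.6% of all and in 0 of either group, and the RUNX motif TGTGGT in 14.2% of all, in 0 of 7 and in 1 of 9 (Spp1). A match is a run of letters and not a site of binding.

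Lists of genes with known roles were then counted over members with a mean of at least 10 CPM. At that minimum 61 of 7266 genes of SHF AngII were 2-fold higher (0.84% called) and 109 lower (1.5%), and 65 of 7303 genes of CNC AngII were higher (0.89%) and 133 lower (1.82%), with medians over all genes of -0.03 and -0.01. Of all these genes 43.7% in SHF AngII and 48.7% in CNC AngII had a ratio above 0, the background of the counts of members called higher or lower below, which mean a ratio above or below 0. Genes that mark activated fibroblasts in other studies were higher in 16 of 21 cases in SHF AngII (median 0.64, 9 at 2-fold) and in 14 of 20 in CNC AngII (median 0.32, 7 at 2-fold). The list overlaps with the named genes. Adam12, a metalloprotease of activated stroma, was at 38.9 against 9.25 CPM in SHF AngII (1.96) and 31.2 against 9.18 in CNC AngII (1.66). Kif26b, a kinesin that acts downstream of Wnt5a, was at 20.4 against 7.15 and 12.6 against 3.26 CPM (1.40 and 1.67). Its mean in CNC AngII was under the 10 CPM minimum. Tnc, the matricellular protein tenascin C, was at 21.8 against 7.82 and 24.3 against 7.999 CPM (1.37 and 1.49), and depth-weighted at -0.36 in SHF AngII, which turns its direction.

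Other genes of the activated list stood closer to 0, were lower or differed between the libraries. Fmod, the collagen-binding proteoglycan fibromodulin, was at 65.5 against 99.7 CPM in SHF AngII (-0.60) and 65.0 against 119 in CNC AngII (-0.86). Fap, a membrane protease used as a marker of activated fibroblasts, was at 17.3 against 16.1 and 15.6 against 19.6 CPM (0.10 and -0.31). Meox1, a homeobox factor of activated cardiac fibroblasts, was at 33.6 against 29.1 and 40.7 against 45.9 CPM (0.20 and -0.17), and Runx1 at 60.6 against 56.1 and 85.0 against 72.9 (0.11 and 0.22). These 4 genes did not separate the cells by 2-fold in either library. Cilp, a matrix protein of cartilage and injured heart, was at 178 against 122 CPM in SHF AngII (0.55) and 112 against 155 in CNC AngII (-0.46), so its direction differed between the libraries. Sfrp2, a secreted Wnt modulator, was at 352 against 112 CPM in SHF AngII (1.65) and 733 against 597 in CNC AngII (0.30). Ptn, the growth factor pleiotrophin, was at 37.6 against 62.0 CPM in SHF AngII (-0.71) and 59.5 against 297 in CNC AngII (-2.30), the list's only gene lower at 2-fold.

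The fibrillar collagen genes Col1a1, Col3a1 and Col5a2 were modestly higher, by less than 2-fold. Of 18 collagen chains measured, 10 (55.6%) were higher in each AngII library, beside 43.7% and 48.7% of all genes, with medians of 0.27 in SHF AngII and 0.16 in CNC AngII (depth-weighted 0.54 and 0.25). Col1a1 was at 5128 against 3294 CPM in SHF AngII (0.64) and 4253 against 2996 in CNC AngII (0.51), Col3a1 at 8432 against 5683 and 5637 against 4483 (0.57 and 0.33). Col5a2, which sets fibril diameter with the other type V chain, was at 1104 against 655 and 1176 against 686 CPM (0.75 and 0.78). Col11a1, a chain of a minor fibrillar collagen, stood higher in ratio than the chains of types I and III, at 58.0 against 11.6 CPM in SHF AngII (2.22) and 36.7 against 14.5 in CNC AngII (1.28). The basement membrane chain Col15a1 was lower, at 56.8 against 113 and 97.7 against 157 CPM (-0.98 and -0.68), and the type VI chains Col6a1, Col6a2 and Col6a3 had ratios between -0.41 and -0.09 in SHF AngII and between -0.54 and -0.35 in CNC AngII.

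Enzymes and chaperones that process collagen were higher in 17 of 21 cases in SHF AngII (median 0.37) and 16 of 21 in CNC AngII (0.49). Besides Lox, its relatives Loxl2 and Loxl3 were at 73.4 against 26.0 and 149 against 72.4 CPM in SHF AngII (1.46 and 1.03) and 60.3 against 27.6 and 188 against 105 in CNC AngII (1.10 and 0.84), whereas Loxl1 was at 578 against 608 and 576 against 541 (-0.07 and 0.09). P4ha2, a catalytic subunit of prolyl 4-hydroxylase, was at 99.5 against 48.2 and 81.3 against 31.99 CPM (1.03 and 1.32), and its relative P4ha3, below the minimum in level, at 17.2 against 2.77 and 11.4 against 2.96 (2.27 and 1.65). So among the lysyl oxidases and prolyl hydroxylases only some members were at 2-fold, and Loxl1 was near 0 in ratio. Plod2, the lysyl hydroxylase of collagen telopeptides, was at 259 against 153 and 218 against 136 CPM (0.76 and 0.67), and Serpinh1, the collagen chaperone of the endoplasmic reticulum, at 2355 against 1532 and 2235 against 1437 (0.62 and 0.64). Pcolce and Adamts2, which act on the procollagen ends outside the cell, had ratios of -0.11 and -0.15 in SHF AngII and -0.18 and -0.10 in CNC AngII.

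Genes of the secretory pathway and unfolded protein response were higher in 19 of 25 cases in SHF AngII (median 0.34) and 20 of 25 in CNC AngII (0.38), and 0 reached 2-fold in either. Kdelr2 and Kdelr3, receptors that return chaperones to the endoplasmic reticulum, had ratios of 0.59 and 0.52 in SHF AngII and 0.71 and 0.59 in CNC AngII. Hspa5, the chaperone BiP, was at 868 against 708 CPM (0.29) and 958 against 719 (0.41). Stress factors of the same list were not higher: Ddit3 was at 39.1 against 43.9 and 36.7 against 66.4 CPM (-0.16 and -0.84), and Xbp1 at 125 against 139 and 136 against 142 (-0.16 and -0.07).

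Matricellular and provisional matrix genes were higher in 15 of 23 cases in SHF AngII (median 0.23) and 13 of 23 in CNC AngII (0.11). Thbs1, a thrombospondin that can activate latent TGF-beta, was at 302 against 174 CPM in SHF AngII (0.80) and 291 against 76.7 in CNC AngII (1.91). Thbs2 was at 75.3 against 32.05 and 84.5 against 58.7 (1.21 and 0.52). The proteoglycan Lum was lower, at 1225 against 1664 and 837 against 1507 CPM (-0.44 and -0.85), and Bgn was near 0 in ratio (-0.13 and -0.04). Ccn2, a target of TGF-beta and YAP, had ratios of -0.17 and 0.11.

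Elastic fibre genes were split, with 7 of 15 higher in SHF AngII (median -0.05) and 9 of 15 in CNC AngII (0.11). Eln, the elastin gene, was at 4348 against 2927 CPM (0.57) and 5306 against 3304 (0.68), and Fbn1, fibrillin 1, at 986 against 634 (0.64) and 1039.6 against 683 (0.60). Mfap5, a microfibril glycoprotein, was at 3173 against 1844 and 3294 against 1807 (0.78 and 0.87). Ltbp4, a latent TGF-beta binding protein needed for elastic fibre assembly, was lower at 132 against 298 and 127 against 277 (-1.17 and -1.12), as was Fbln1 at 503 against 738 and 328 against 675 (-0.55 and -1.04). Elastin, fibrillin 1 and Mfap5 were thus higher in both AngII libraries where Ltbp4 and Fbln1 were lower.

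**Figure D4:**
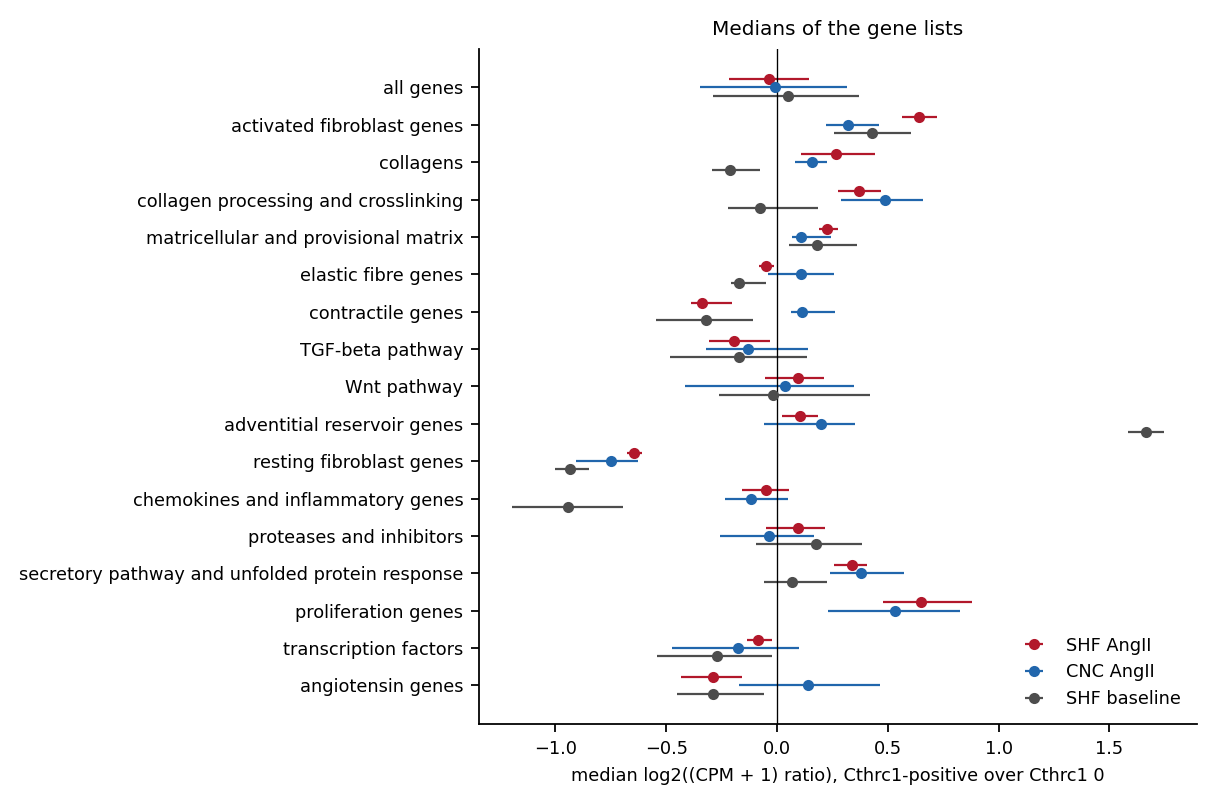
Median log2 ratio of Cthrc1-positive over Cthrc1-zero fibroblasts for each gene list in the 3 libraries (points), where the bars span the medians of the lower and of the upper counting limits of its genes. Activated fibroblast, collagen processing and secretory lists lie above 0 and the resting fibroblast list below 0 in both AngII libraries, and the adventitial reservoir list lies at 1.67 in SHF baseline, where the proliferation list, with 3 measured genes, is not drawn.

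Genes of resting fibroblasts were lower in 17 of 20 cases in SHF AngII (median -0.64, 5 at 2-fold) and 20 of 21 in CNC AngII (-0.75, 7 at 2-fold). With Cthrc1-zero cells weighted by depth the medians were -0.08 and -0.20, so at matched depth the list as a whole stood nearer to 0. Clec3b, a plasminogen-binding lectin of adventitial cells, was at 218 against 443 CPM in SHF AngII (-1.02) and 166 against 431 in CNC AngII (-1.37). Tcf21, a transcription factor of the epicardial fibroblast lineage, was at 108 against 201 and 38.5 against 105 (-0.89 and -1.42, the latter -0.80 when depth-weighted). Mgp, an inhibitor of calcification and the most abundant gene of the list, was at 22272 against 37579.5 and 25369 against 34999 CPM (-0.75 and -0.46). Cxcl12, the chemokine ligand of Cxcr4, was higher, at 496 against 381 and 450.2 against 344 CPM (0.38 and 0.39). Genes of the adventitial reservoir were near 0 in ratio, with medians of 0.10 and 0.20, which were 0.52 and 0.58 when depth-weighted. Pi16, a peptidase inhibitor that marks these cells, was at 1256 against 1197 and 1370 against 1268 CPM (0.07 and 0.11), with a depth-weighted ratio of 0.68 in SHF AngII.

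Contractile genes differed between the libraries. They were lower in 12 of 15 cases in SHF AngII (median -0.34) and higher in 11 of 15 in CNC AngII (0.11). Acta2 was at 1869 against 2473 CPM in SHF AngII (-0.40) and 2147 against 1993 in CNC AngII (0.11), and Tagln, a smooth muscle actin-binding protein, at 1766 against 2529.6 (-0.52) and 1974 against 1825 (0.11). With cells thinned to 5000 UMIs and gated anew on thinned Cthrc1 counts, 242 cells of CNC AngII were positive and 368 had 0. The ratios were then -0.11 for Acta2 and -0.00089 for Tagln, so neither was higher between those cells. Cells with 5 or more Acta2 UMIs were 73.5% of Cthrc1-positive and 60.6% of Cthrc1-zero fibroblasts in SHF AngII, and 47.3% and 53.3% after thinning. In CNC AngII they were 77.1% and 52.5%, and 54.7% and 41.1% after thinning. The thinned shares kept the cells gated at full depth, so they and the thinned ratios cover different cells. The smooth muscle marker sums given above are nearly all Acta2 and Tagln, so their order adds nothing to these values. Both genes kept their direction in each AngII library with a smooth muscle profile subtracted.

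TGF-beta pathway genes were lower in 20 of 28 cases in SHF AngII (median -0.19) and 18 of 28 in CNC AngII (-0.13). Among ligands Tgfb2 was at 55.2 against 36.2 and 64.8 against 36.7 CPM (0.59 and 0.80), Tgfb3 at 53.5 against 35.3 and 48.9 against 33.8 (0.59 and 0.52) and Tgfb1 at 49.4 against 70.5 and 72.2 against 86.2 (-0.50 and -0.25). The receptor gene Tgfbr2 was at 56.5 against 89.0 and 44.2 against 64.9 (-0.65 and -0.54) and Tgfbr1 at 28.3 against 30.4 and 24.97 against 30.5 (-0.10 and -0.28). Tgfb2 and Tgfb3 were thus higher, and Tgfb1 and Tgfbr2 lower, in both libraries, while Tgfbr1 differed by little (-0.10 and -0.28). The SMAD-induced genes Smad7 and Pmepa1 had ratios of 0.11 and -0.05 in SHF AngII and 0.07 and 0.08 in CNC AngII. Inhba, a subunit of activin A, was the sole member at 2-fold and in 1 library, lower in SHF AngII at 20.9 against 58.9 CPM (-1.45) and at 48.6 against 40.6 in CNC AngII (0.25).

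Wnt pathway genes were evenly split, with 9 of 17 higher in SHF AngII (median 0.10) and 10 of 18 in CNC AngII (0.04). Sfrp1, a secreted Wnt antagonist, was at 958 against 522 CPM in SHF AngII (0.87) and 426 against 441 in CNC AngII (-0.05). Frzb, another secreted antagonist, was lower at 48.6 against 113 and 62.7 against 105 (-1.21 and -0.73). Wnt2, a ligand, was at 13.6 against 2.67 and 17.1 against 3.55 CPM (1.99 and 1.99), near the 10 CPM minimum and under it in SHF AngII. The receptor Fzd6 was at 8.33 against 2.003 and 12.6 against 2.96 (1.64 and 1.78). Its mean was under the minimum in both AngII libraries, so it is not among the genes counted. Wnt5a was at 48.2 against 54.2 and 27.6 against 36.1 CPM (-0.17 and -0.37).

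Chemokines and inflammatory genes were higher in 10 of 22 cases in SHF AngII (median -0.05) and 9 of 22 in CNC AngII (-0.12, depth-weighted 0.22, which turns the direction). Ccl2 and Ccl7, ligands of the monocyte receptor Ccr2, were at 516 against 390.4 and 835 against 507 CPM in SHF AngII (0.40 and 0.72) and at 441 against 312 and 511 against 412 in CNC AngII (0.50 and 0.31). Il6 was at 211 against 229 and 133 against 170.3 CPM (-0.12 and -0.36), and C3, the central complement component, at 496 against 704 and 432 against 627 (-0.50 and -0.54). Monocyte ligands were thus higher while the cytokine and C3 were lower, all by less than 2-fold. Among proteases and inhibitors, higher in 13 of 21 cases in SHF AngII and 11 of 22 in CNC AngII (medians 0.10 and -0.04), Timp1, the tissue inhibitor of metalloproteases, was at 3487 against 2641 and 3479.6 against 1949 CPM (0.40 and 0.84). Mmp14, the membrane collagenase, was at 76.4 against 51.5 and 105 against 68.4 (0.56 and 0.60), and Mmp3 at 637 against 819 and 361 against 602 (-0.36 and -0.74).

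Transcription factors were higher in 13 of 27 cases in SHF AngII and 10 of 30 in CNC AngII, with medians of -0.09 and -0.18. Hif1a, the oxygen-regulated factor, was at 101 against 63.4 and 105 against 65.2 CPM (0.66 and 0.68), Prrx1, a mesenchymal homeobox factor, at 199.6 against 132 and 179.8 against 147 (0.59 and 0.29) and Twist1 at 74.0 against 59.2 and 67.7 against 50.4 (0.32 and 0.42). None of these 3 reached 2-fold. Nr4a1, an immediate early nuclear receptor, was lower at 278 against 435 and 212 against 374 CPM (-0.64 and -0.81), and so was Egr1 at 711 against 994 and 649 against 1043 (-0.48 and -0.68). Of 14 angiotensin genes 5 were measured, with medians of -0.29 and 0.14, neither of which kept its sign under every alternative. Ace, the angiotensin-converting enzyme, was at 86.1 against 194 CPM in SHF AngII (-1.16) and 127 against 221 in CNC AngII (-0.79), and the receptor Agtr1a, below the minimum, at 3.15 against 2.19 and 2.68 against 1.18.

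Proliferation genes were higher in 19 of 19 cases in SHF AngII (median 0.65) and 19 of 20 in CNC AngII (0.53). Depth-weighted medians were -0.10 and -0.19, which turned the direction. Mki67, which marks dividing cells, was at 52.2 against 32.9 CPM in SHF AngII (0.65) and 59.3 against 41.5 in CNC AngII (0.51), depth-weighted -0.04 and -0.30. Cells with 3 or more UMIs of the proliferation list were 54.1% of Cthrc1-positive and 27.7% of Cthrc1-zero fibroblasts in SHF AngII (26.9% and 14.0% after thinning to 5000 UMIs). In CNC AngII they were 50% and 19.5% (27.9% and 12.6% after thinning). The cycling share and the depth were both higher in the Cthrc1-positive cells, and their parts cannot be told apart.

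The Cthrc1-positive cells varied among themselves with their Cthrc1 level. They were sorted by Cthrc1 CPM per cell into 4 equal groups of 309 cells in SHF AngII and 84 in CNC AngII, with median depths of 19622, 18511, 21009 and 23536 UMIs in SHF AngII. Postn was at 144, 256, 422 and 1177 CPM from the lowest to the highest group in SHF AngII and 219.6, 419, 532 and 878 in CNC AngII. Ddah1 was at 81.2, 111, 163 and 285 CPM in SHF AngII and 79.0, 134, 179 and 248 in CNC AngII. Both genes were higher in each group than in the group below it, in both libraries, over Cthrc1 levels that ran from 162 to 2342 CPM in SHF AngII and from 178 to 2063 in CNC AngII. Fn1 was at 570.3, 651, 865 and 1440.0 CPM in SHF AngII and 647, 715, 961 and 1391 in CNC AngII. Lox was at 1069, 1267, 1524 and 2043 CPM in SHF AngII and 1136, 1331, 1715 and 1838 in CNC AngII. Apoe ran the other way, at 607, 517, 305 and 200.3 CPM in SHF AngII and 667, 381, 353 and 138 in CNC AngII.

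Among the same groups Col1a1 was at 4465 CPM in the lowest and 5833 in the highest group of SHF AngII, and at 3807 and 4630.3 in CNC AngII. Rbp4 was at 555 and 135 CPM in SHF AngII and at 499 and 112 in CNC AngII. Spp1 was at 460.1 CPM in the lowest group and 4.64 in the highest in SHF AngII, and at 765 and 11.6 in CNC AngII. Spp1 was thus nearly missing from the cells with most Cthrc1, though few cells carried most of it. The 1% of Cthrc1-positive cells with most Spp1 held 85.0% of its UMIs in SHF AngII and 48.3% in CNC AngII. Acta2 differed little across the groups, at 2067 and 1883 CPM in SHF AngII and 2508 and 2068 in CNC AngII. Mki67 was at 61.4 and 45.2 CPM in SHF AngII and 47.8 and 82.6 in CNC AngII. Tcf21 was at 136 and 63.4 CPM in SHF AngII. In CNC AngII it was at 31.9, 41.7, 52.8 and 27.1 CPM from the lowest to the highest group, with no steady fall. Pi16 was at 1045 and 1554 CPM in SHF AngII and 921 and 2233 in CNC AngII, highest in the cells with most Cthrc1. The groups were cut from a measured level and are not cell types.

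**Figure D5:**
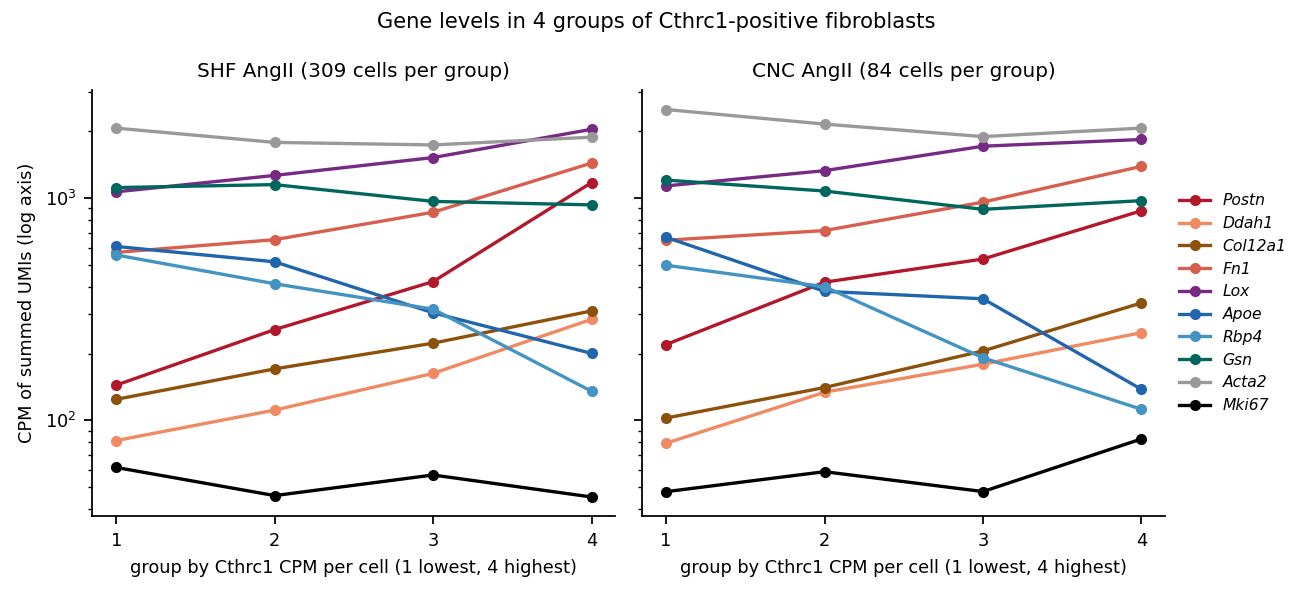
CPM of selected genes (log axis) in 4 equal groups of Cthrc1-positive fibroblasts, from the lowest (1) to the highest (4) Cthrc1 CPM per cell, in SHF AngII and CNC AngII. Postn, Ddah1 and Fn1 stand higher from group to group, Apoe and Rbp4 stand lower, and Acta2 lies between 1737 and 2508 CPM.

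Other states crossed the Cthrc1 gate. Pi16 with 2 or more UMIs was found in 90.05% of Cthrc1-positive and 74.3% of Cthrc1-zero fibroblasts of SHF AngII, and in 65.4% and 64.5% after thinning, nearly the same share at equal depth. Comp or Chad, genes of cartilage, had 2 or more UMIs in 22.2% and 9.87% of the cells of SHF AngII (10.5% and 7.83% thinned). In CNC AngII the shares were 37.2% and 18.9% (22.8% and 16.5% thinned). Ddah1 had a UMI in 52.8% and 12.2% of the cells of SHF AngII (30.0% and 7.70% thinned) and in 52.7% and 12.4% of those of CNC AngII (34.8% and 7.72% thinned). At equal depth the shares with Ddah1 still stood apart in both libraries, and those with Pi16 in SHF AngII did not.

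Cthrc1-positive fibroblasts of the CNC AngII and SHF AngII libraries differed at 2-fold in few genes. Of 2543 genes at 50 CPM or more, 8 were 2-fold higher in CNC AngII (0.315% called) and 12 lower (0.472%). In Cthrc1-zero fibroblasts 6 of 2579 were higher (0.233%) and 4 lower (0.155%). At a minimum of 10 CPM the counts in Cthrc1-positive cells were 36 of 7175 higher (0.502%) and 30 lower (0.418%). Whether the difference is of lineage or of library preparation cannot be told apart with 1 library each. Serpinb6b, an intracellular protease inhibitor, was at 292 CPM in CNC AngII and 86.1 in SHF AngII (log2 ratio 1.75, 1.67 to 1.85), and its ratio in Cthrc1-zero fibroblasts was 1.73. Comp was at 279.8 and 106 CPM (1.39, in Cthrc1-zero fibroblasts 0.72). Tnfrsf11b, osteoprotegerin, a decoy receptor of the ligand RANKL, was at 315 and 108 (1.53, in Cthrc1-zero 0.79). Serpinb6b thus differed alike in both kinds of fibroblast.

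Hp, which encodes haptoglobin, was at 117 CPM in CNC AngII and 38.8 in SHF AngII (1.56, in Cthrc1-zero 0.76). Its UMIs came from few Cthrc1-positive cells. The 1% of cells with most held 48.7% of them in CNC AngII and 50.6% in SHF AngII. Lmcd1, a LIM domain cofactor, was at 138 and 56.8 (1.27, in Cthrc1-zero 0.87). Cemip, which takes part in the breakdown of hyaluronan, was at 84.1 and 35.5 CPM (1.22, 1.09 to 1.40) and at 4.44 and 11.4 in Cthrc1-zero fibroblasts (-1.18), the reverse direction at low counts. Lower in CNC AngII were Epyc, a small proteoglycan of cartilage, at 31.3 against 128 CPM (-1.997, -2.25 to -1.82; in Cthrc1-zero -0.96), and Tcf21 at 38.5 against 108 (-1.46, in Cthrc1-zero -0.93). Smoc2, a calcium-binding matricellular protein, was at 181 against 443 (-1.28, in Cthrc1-zero -0.63). Sfrp1 was at 426 against 958 (-1.17, in Cthrc1-zero -0.24), Hsd11b1 at 38.2 against 92.8 (-1.26, -1.13) and the predicted gene Gm12840 at 38.4 against 90.01 (-1.21, -0.91). All 6 lower genes were lower in the Cthrc1-zero fibroblasts of CNC AngII too, by less. By list, contractile genes were higher in CNC AngII in 15 of 16 cases (median 0.20), collagens lower in 12 of 18 (-0.23) and resting fibroblast genes lower in 16 of 20 (-0.33), while all genes had a median of 0.02 and 54.8% of them were above 0. Proliferation genes were higher in 19 of 20 (0.18, but -0.21 in cells with 0 Myh11 UMIs). Collagen processing genes were lower in 17 of 23 (-0.08). Median depths were 15988 and 20583 UMIs.

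In SHF baseline the same gate took 168 of 3262 fibroblasts. There 95 of 2888 genes were 2-fold higher in the Cthrc1-positive cells (3.29% called) and 79 lower (2.74%), and at a minimum of 10 CPM 201 of 7935 were higher (2.53%) and 190 lower (2.39%). Across 2233 genes at the minimum in all libraries the ratios of SHF baseline and SHF AngII had a Pearson correlation of 0.420. Of 9 genes 2-fold higher in SHF AngII among them 6 were also higher at baseline, which is 6 of the 42 higher there. Another 13 were lower in both, and 1 was 2-fold lower in SHF AngII and 2-fold higher at baseline. That minimum leaves out genes at low levels at baseline, Ddah1 among them, so the 9 are part of the 22 genes higher in SHF AngII. Adventitial reservoir genes were higher in 18 of 18 cases, 14 at 2-fold, with a median of 1.67 beside 0.05 over all genes, of which 57.1% were above 0. Pi16 was at 8943 against 2533 CPM, Dpp4, a dipeptidyl peptidase of adventitial progenitors, at 137 against 12.2 (3.38) and Sema3c, a semaphorin, at 644 against 144 (2.16). In the AngII libraries Dpp4 was at 6.68 against 4.67 and 14.4 against 5.04 CPM.

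Further genes were chosen by their ratios at baseline alone, after their values were seen, and some of them stood apart under AngII too. Akr1c18, an aldo-keto reductase, was at 197 against 15.7 CPM (3.56), Aldh1a3, which makes retinoic acid, at 199 against 24.2 (2.99), Smpd3, a neutral sphingomyelinase, at 220.2 against 25.8 (3.05) and Basp1, a membrane-bound signalling protein, at 202 against 28.4 (2.79). Comp was at 743 against 91.6 CPM (3.01), with 24.0% of its UMIs from 1 cell. The lower genes were Il6 at 36.6 against 243 (-2.70), Igfbp3, a carrier of insulin-like growth factors, at 25.6 against 115 (-2.13), the laminin chain Lamc3 at 42.4 against 176 (-2.03), the Notch target Heyl at 28.2 against 110.1 (-1.93) and Matn2, a matrix adaptor protein, at 35.7 against 132 (-1.86). Lamc3 was further from 0 under AngII, at 15.3 against 128 CPM in SHF AngII (-2.98) and 17.4 against 80.3 in CNC AngII (-2.14), and its mean in CNC AngII was under the 50 CPM minimum. Basp1 was at 1.31 and 1.62 in ratio in SHF AngII and CNC AngII, Aldh1a3 at 0.95 and 0.86, Heyl at -1.13 and -0.75 and Matn2 at -0.85 and -1.19. Smpd3 (0.58 and 0.35), Igfbp3 (0.23 and -0.25) and Il6 stood nearer to 0 under AngII, and Akr1c18 was at under 5 CPM there.

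Some genes of the AngII cells were shared with the baseline cells and others were not. Fn1 was at 1384 against 304 CPM at baseline (2.18), Col12a1 at 138 against 34.3 (1.97), Fbln2 at 1046 against 437 (1.26) and Postn at 312 against 103 (1.59). Rbp4 (-1.75), Apoe (-1.26) and Fgl2 (-1.55) were lower at baseline as they were under AngII. Ddah1 was higher at baseline too, at 11.03 against 1.78 CPM (2.12, 1.87 to 3.37), low levels from 25 and 45 UMIs. Lox was at 259.9 against 276 CPM (-0.09, -0.21 to 0.03) and Nt5dc2 at 20.7 against 23.6 (-0.18). Lox thus did not separate the baseline cells. The collagen list had a median of -0.21, with Col1a1 at 3248 against 4015 (-0.31) and Col3a1 at 4863 against 7062 (-0.54), and the collagen processing list -0.08. Contractile genes were lower in 15 of 15 cases (-0.32) and chemokines in 13 of 16 (-0.94). Cycling cells were 8.33% of the Cthrc1-positive and 6.34% of the Cthrc1-zero fibroblasts, and Mki67 had 0 UMIs in the 168 cells. Whether the difference between SHF AngII and SHF baseline in any of these ratios is more than the spread between mice was not tested, since each group is 1 library.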

How the data were processed

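Raw UMI count tables were used as deposited by the authors, 1 table per library, with genes in lines and cell barcodes in columns. The submitters' processing notes name fastp, STAR 2.5, HTSeq 0.6.1 and the build mm10, without role or order. The baseline file holds 18760 genes under older names and each AngII file holds 32285, so comparisons across them used 18112 common genes, 518 of them matched through a synonym in the RefSeq table, which held 99.5% to 99.9% of the UMIs of the Cthrc1-positive cells. Comparisons within a library are free of this.

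Cells were gated on UMIs as described, and the UMIs of a gate were summed and divided by all UMIs of its cells to give CPM. Ratios added 1 CPM to both sides and were called at 2-fold, over genes with a mean of 50 CPM (10 CPM for lists). Shares carry exact Clopper-Pearson intervals and ratios conditional binomial intervals, both at 95%, on the counts without the added 1 CPM. PCR duplicates are collapsed in UMIs, and the intervals cover counting error only. Since each group is 1 library, no test was made.

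The named genes were, among genes detected in 10% or more of the higher gate's cells and with the same sign in both AngII libraries, the 12 highest and 12 lowest by the ratio nearer to 0, without gate, mitochondrial and ribosomal protein genes, and for CNC AngII over SHF AngII the 6 highest and 6 lowest. Genes of the 16 lists and of the marker lists could also be named, and 1 of the 24 named genes is not reported here. The cells, the lists and the rule were chosen with earlier results of these data known.

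Doublets were marked with Scrublet (scanpy 1.11.5, expected rate 8e-06 per cell) and kept, between 2.01% and 2.65% of kept barcodes per library. Thinning drew 5000 UMIs per cell with seed 0. Ratios and Cthrc1-positive shares after thinning used gates set anew on the thinned Cthrc1 counts. Thinned shares of cells with other genes kept the gates of full depth. The code was tested on simulated data, run with Python 3.11.15, numpy 2.4.6, scipy 1.17.1 and pandas 2.3.3, and edgeR 4.0.16 served for TMM factors in 1 alternative only. Of 16 alternatives, 2 (smooth muscle profile subtracted, Pecam1 condition dropped) were added after the data were seen. The baseline sample labelled CNC was not analysed here.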

Additional observations from a re-analysis of the deposited data

Results flagged for a closer look

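The following ratios of Cthrc1-positive over Cthrc1-zero fibroblasts lay on opposite sides of 0 in 2 groups, and none of these differences was tested, since each group is 1 library. For collagens the median log2 ratio was 0.27 in SHF AngII and -0.21 in SHF baseline. Contractile genes had a median of -0.34 in SHF AngII and 0.11 in CNC AngII. Serpine2 had a ratio of -1.72 in SHF AngII and 0.32 in SHF baseline, and for Gstm1 the values were -1.42 and 0.25. Clu was at -1.49 and 0.44. Spp1 was at -1.33 and 1.19, from 82.1 against 35.5 CPM at baseline, where it was -0.048 when depth-weighted. The baseline ratios of Serpine2, Clu and Spp1 turned below 0 under at least 1 alternative.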

How the results depend on the processing

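No paired analysis was possible because each group is 1 library. Depth and counts limit the CNC AngII and baseline values most, with 336 and 168 Cthrc1-positive cells. Across the 16 alternatives the shares gave 24 values, of which 12 lay within the counting interval of the reported share. With Cthrc1 at 1 or more UMIs the shares were 62.4% in SHF AngII, 55.9% in CNC AngII and 11.96% in SHF baseline, and with 4 or more 41.6%, 34.2% and 2.24%. Thinned to 5000 UMIs they were 36.9%, 34.3% and 3.24%. Without cycling cells they were 41.4% in SHF AngII and 33.7% in CNC AngII, and a stricter filter on cells gave 6.49% in SHF baseline. The AngII shares were above the baseline share in each of these settings.

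Of 94 counts of genes at 2-fold, 81 lay within 1.5 times the reported count. The others came with the gene minimum, the added pseudocount or the cycling cells, which by construction change the genes or cells that enter or draw low ratios toward 0. A minimum of 10 CPM gave 61 higher and 109 lower genes in SHF AngII, 65 and 133 in CNC AngII, and 36 and 30 for Cthrc1-positive cells of CNC AngII over SHF AngII. A minimum of 100 CPM gave 12 higher in SHF AngII, 11 higher and 22 lower in CNC AngII, and 5 and 6 for CNC AngII over SHF AngII. With 10 CPM added in place of 1, 14 genes were higher in SHF AngII, and without cycling cells 25 were lower in CNC AngII.

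Of 880 list medians 14 turned their sign, and of 2420 ratios of single genes 28 did, and the cause was not tested. With Cthrc1-zero cells weighted by depth, the turned values in SHF AngII were -0.10 for proliferation genes, 1.26 for Comp, 0.23 for Smoc2, -0.36 for Tnc and -0.040 for Mki67. In CNC AngII they were 0.22 for chemokines, -0.19 for proliferation genes, -0.0064 for angiotensin genes, -0.13 for Serpinb6b and -0.30 for Mki67, and in SHF baseline -0.050 for Serpine2 and -0.048 for Spp1. Leaving out cycling cells says nothing of proliferation genes, since these cells are defined by UMIs of that list and a limit on them lowers the CPM of deeper cells by construction. The values were -0.47 in SHF AngII and -0.46 in CNC AngII for the list. In the same setting Smoc2 and Gm12840 were at 0.15 and 0.027 in SHF AngII, and angiotensin genes, Hist1h2ap and Mki67 at -0.072, -0.48 and -0.27 in CNC AngII. Between the Cthrc1-positive cells of the libraries, Hist1h2ap was then at -0.41 and Rbp4 at 0.23.

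Thinned to 5000 UMIs, Hp, Acta2 and Tagln were at -0.25, -0.11 and -0.00089 in CNC AngII, Serpine2 and Serpinb6b at -0.37 and -0.83 in SHF baseline, and Palld at 0.0015 for CNC AngII over SHF AngII. With 0 Myh11 UMIs, proliferation genes and Mki67 were at -0.038 and -0.15 in CNC AngII and at -0.21 and -0.20 for CNC AngII over SHF AngII. As means of per-cell shares, angiotensin genes were at 0.025 in SHF AngII, chemokines at 0.083 in CNC AngII and proteases and inhibitors at -0.022 in SHF baseline. In SHF baseline, 1 or more Cthrc1 UMIs gave -0.0079 for proteases and inhibitors, -0.0079 for Serpine2, -0.083 for Serpinb6b and 0.75 for Mki67, and 4 or more gave -0.0044, -0.15 and -0.76 for the first 3 of these. The stricter filter gave -0.061 for Clu there. Of the 48 ratios of the 24 named genes in the AngII libraries, 47 kept their sign under every alternative, Hist1h2ap in CNC AngII being the exception, and 25 stayed at 2-fold or more under all of them.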
